A study of Caenorhabditis elegans with 9 samples.

Results

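The GATA factors of gut and epidermis described here are the 8 genes *elt-2*, *elt-3*, *elt-4*, *elt-6*, *elt-7*, *egl-18*, *end-1* and *end-3*, taken by symbol from the 46926 genes of the count table. Expression was measured by RNA-seq of polyadenylated RNA from whole adult worms of the wild-type *C. elegans* strain N2, in 3 libraries per condition. From adult day 1, worms were kept for 24 h with undiluted HT115 bacteria (AL, ad libitum), with diluted bacteria (DR1) or with no bacteria (DR0), and all 3 conditions had 10 μg per ml kanamycin in the plates to block bacterial growth. The treatment label of the DR0 samples carries the number of the other restricted condition beside the name DR0 and the absence of food, and these samples were taken as DR0. Library totals ran from 9203611 to 12012750 counts. Separate cultures behind the 3 libraries are not stated in the sources, and p values then cover only the spread among these libraries, which may be technical.

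GATA factors are zinc finger proteins that bind DNA at sites with the letters GATA. In the worm embryo, END-1 and END-3 commit the founder cell of the gut to its fate and switch on *elt-7* and *elt-2*. ELT-2 then stays on in the intestine for life and drives most of its genes, ELT-7 acts beside it, and *elt-4* is a short gene close in sequence to *elt-2* with no settled role. In the epidermis, ELT-3 acts in the main body hypodermis, while EGL-18 and ELT-6 act in the lateral seam cells and in the vulva. The study examined ELT-2 as a regulator of lysosomal genes, in what it named the lysosomal surveillance response (LySR), and the comparison here asks whether feeding changed the transcripts of these factors.

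The members lie on chromosomes IV, V and X of WBcel235, all on the plus strand, and all are annotated as protein-coding. On chromosome X, *elt-4* (WBGene00001252, 10475527 to 10475959) is 5280 bp from *elt-2* (WBGene00001250, 10481240 to 10483441) with 1 coding gene between them, and *elt-3* (WBGene00001251) runs from 13934874 to 13941216. On chromosome IV, *egl-18* (WBGene00001186, 1902322 to 1917840) ends 136 bp before *elt-6* (WBGene00001253, 1917977 to 1921643). On chromosome V, *elt-7* (WBGene00015981) runs from 4770670 to 4773086, and *end-1* (WBGene00001310, 13985128 to 13987074) lies 27620 bp from *end-3* (WBGene00001311, 14014695 to 14015980). Counting used no strand, so reads of overlapping genes cannot be told apart. Only *end-3* shares exonic bases with another gene, 3 bp with *srh-308* on the opposite strand, which had from 0 to 12 counts per library.

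All 8 members passed the filter on low counts, but not through every condition. *elt-4* was under the cutoff in AL, *end-3* in AL and DR1, and *end-1* in DR0. Such a filter favours genes that differ, so the counts of members below are a description of these genes. With no filter, the calls of *elt-4* in DR1 (adjusted p = 0.00592), *end-1* in DR0 (adjusted p = 0.0080) and *end-3* in DR0 (adjusted p = 0.00615) held, and that of *elt-4* in DR0 did not.

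Per exonic kb, the mean levels in AL spanned from 28.4 ± 2.24 CPM per kb for *egl-18* down to 0.794 ± 0.324 for *end-3* (SD, n = 3). CPM is the count scaled to the library size after TMM adjustment, in counts per 1e+06. *elt-7* at 23.1 ± 5.43 and *elt-3* at 21.5 ± 2.67 CPM per kb followed *egl-18*, and the libraries of neighbours in this order overlapped. *elt-2* was next at 15.3 ± 1.70 CPM per kb, with all 3 AL libraries below those of *elt-3* and above those of *elt-6* at 5.16 ± 0.756. The embryonic factor *end-1* stood at 4.16 ± 0.248 CPM per kb, overlapping *elt-6*, and *elt-4* at 2.27 ± 1.03. In DR1 and DR0 the order was led by *elt-7*, at 31.3 ± 2.37 and 35.6 ± 0.453 CPM per kb, with all of its libraries above those of *egl-18* at 21.0 ± 0.423 and 27.1 ± 0.356. *elt-3* moved below *elt-2* in both, at 13.3 ± 0.636 CPM per kb in DR1, where their libraries did not overlap, and at 14.7 ± 1.33 in DR0, where they did. At the bottom of the order, *end-1* in DR0 at 1.79 ± 0.768 CPM per kb and *end-3* at 2.41 ± 0.673 had overlapping libraries.

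**Figure D1:**
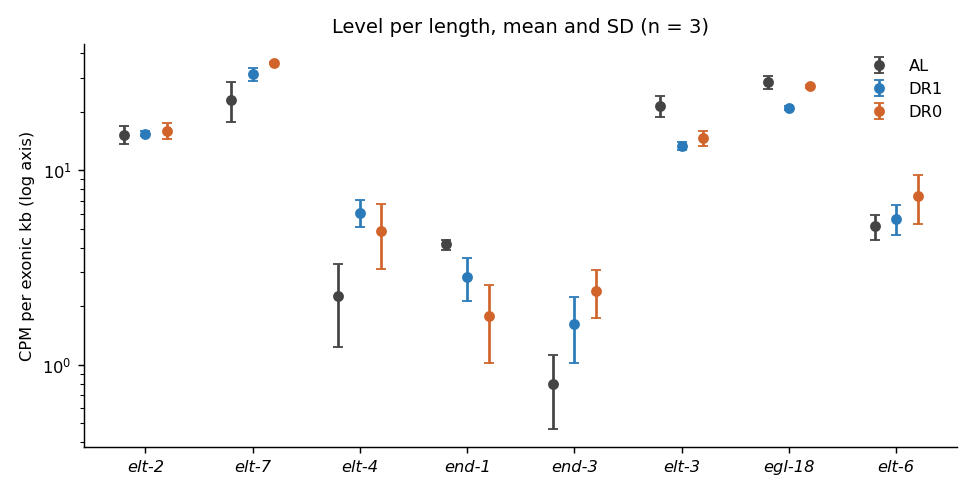
Mean CPM per exonic kb (log axis) of each GATA factor gene in AL, DR1 and DR0, with SD bars (n = 3 libraries). *elt-7* leads in DR1 and DR0 at 31.3 and 35.6 CPM per kb, and *end-3* is lowest in AL at 0.794.

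Of the 8 members, 2 were higher and 2 lower in DR1 than in AL at an adjusted p under 0.05 by edgeR's quasi-likelihood test. For all 14332 genes tested, 28.5% were higher and 31.6% lower in that comparison. In DR0, 4 members were higher and 2 lower than in AL, against 29.6% and 31% of all genes. Between the restricted conditions, *egl-18* alone differed and was higher in DR0 than in DR1, against 21.2% of all genes higher and 17.8% lower. With the added threshold of the study, an absolute log2 fold change over 1, only *elt-4* was called in DR1 and only *elt-4*, *end-1* and *end-3* in DR0, while 19.2% and 19.5% of all genes were. No member passed both thresholds between DR0 and DR1, where 2.46% of all genes did. The median log2 fold change of the members was 0.072 in DR1, 0.29 in DR0 and 0.16 between DR0 and DR1, and that of all genes was 0.033, 0.034 and 0.0052. Both comparisons with AL use the same AL libraries. In whole worms, fewer cells of a type and less RNA per cell cannot be told apart.

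**Figure D2:**
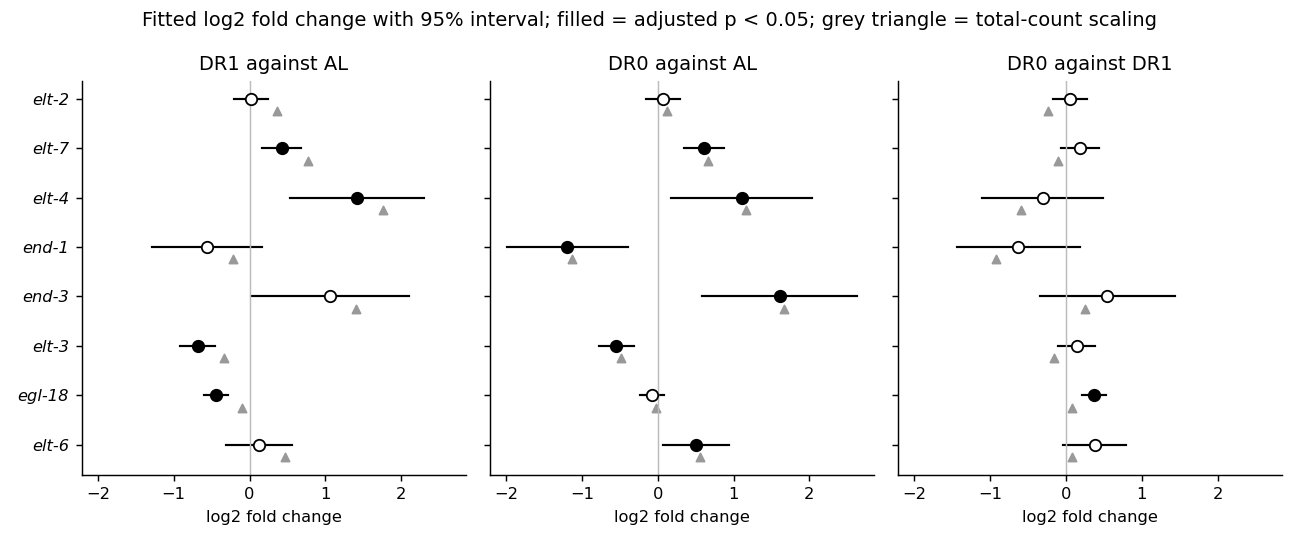
Fitted log2 fold change of each member with its 95% interval in the 3 comparisons (circles, filled at an adjusted p under 0.05) and the value with total-count scaling (grey triangles). *elt-3* lies left of 0 in both comparisons with AL, and *end-1* and *end-3* lie on opposite sides of 0.

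The gut factor *elt-2* did not pass the test in any of the 3 comparisons. It stood at 23.4, 26.7 and 21.4 CPM in AL, at 24.8, 23.7 and 23.6 CPM in DR1 and at 22.6, 27.4 and 24.8 CPM in DR0. The libraries of the 3 conditions overlapped, and the lowest and the highest value were in AL and DR0. The 95% interval of its fold change was 0.866 to 1.18 in DR1 and 0.896 to 1.23 in DR0, so that a change of 1.5-fold in either direction lies outside both (adjusted p = 0.903 and 0.598 from edgeR's quasi-likelihood test). From DR1 to DR0 the interval was 0.889 to 1.21. These intervals rest on 677, 842 and 694 counts in AL, DR1 and DR0. They do not cover the choice of scaling. Scaled by total counts, which moves the median gene by 0.35 in DR1 on the log2 scale, *elt-2* had a log2 fold change of 0.36 (adjusted p = 0.0053). With upper-quartile scaling, which moves the median gene by 0.21 in DR0, it had 0.28 (adjusted p = 0.0348). The paper also measured *elt-2* by qRT-PCR in these feeding conditions and reported a significant difference from AL in both DR1 and DR0. That assay scales to reference genes, and its values were not compared with these.

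*elt-7*, the partner of *elt-2*, was higher in both restricted conditions. Its AL libraries held 18.9, 15.2 and 24.3 CPM, the DR1 libraries 28.3, 26.4 and 24.3 CPM and the DR0 libraries 30.3, 29.8 and 29.6 CPM. The AL libraries were spread widely, with an SD of 4.57 CPM where counting alone gives 1.42, and AL replicate 3 (24.25 CPM) was barely below the lowest DR1 library (24.31 CPM). In DR0 the SD was 0.381 CPM. The log2 fold change was 0.42 in DR1 (s.e. 0.13, adjusted p = 0.00603) and 0.61 in DR0 (s.e. 0.13, adjusted p = 0.000258), or 1.34-fold and 1.53-fold. Without AL replicate 2, the DR1 value was 0.27 and no longer called (adjusted p = 0.0646), while the DR0 value was 0.46 and still called. Between DR0 and DR1, the log2 fold change of 0.19 did not pass the test (95% interval −0.066 to 0.44).

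The short gene *elt-4* had few reads under AL feeding, 12, 5 and 8 counts. It had 21, 28 and 34 counts in DR1 and 11, 24 and 18 in DR0. In CPM, all 3 DR1 libraries (1.92, 2.55 and 2.59) lay above the AL libraries (1.33, 0.574 and 0.732), while DR0 (1.27, 2.65 and 1.79) overlapped AL. The log2 fold change was 1.42 in DR1 (s.e. 0.43, adjusted p = 0.00671) and 1.11 in DR0 (s.e. 0.45, adjusted p = 0.0369). Leaving out any of AL replicates 2 and 3 and DR0 replicates 2 and 3 removed the DR0 call (adjusted p 0.0626 to 0.189), as did the fits with the replicate block (adjusted p = 0.0549), limma-voom (adjusted p = 0.0532) and no filter (adjusted p = 0.0535). The coding gene between *elt-4* and *elt-2*, C39B10.7, stood at 2.02 ± 0.302 CPM in AL and had log2 fold changes of 0.32 and 0.44 (adjusted p = 0.423 and 0.282).

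**Figure D3:**
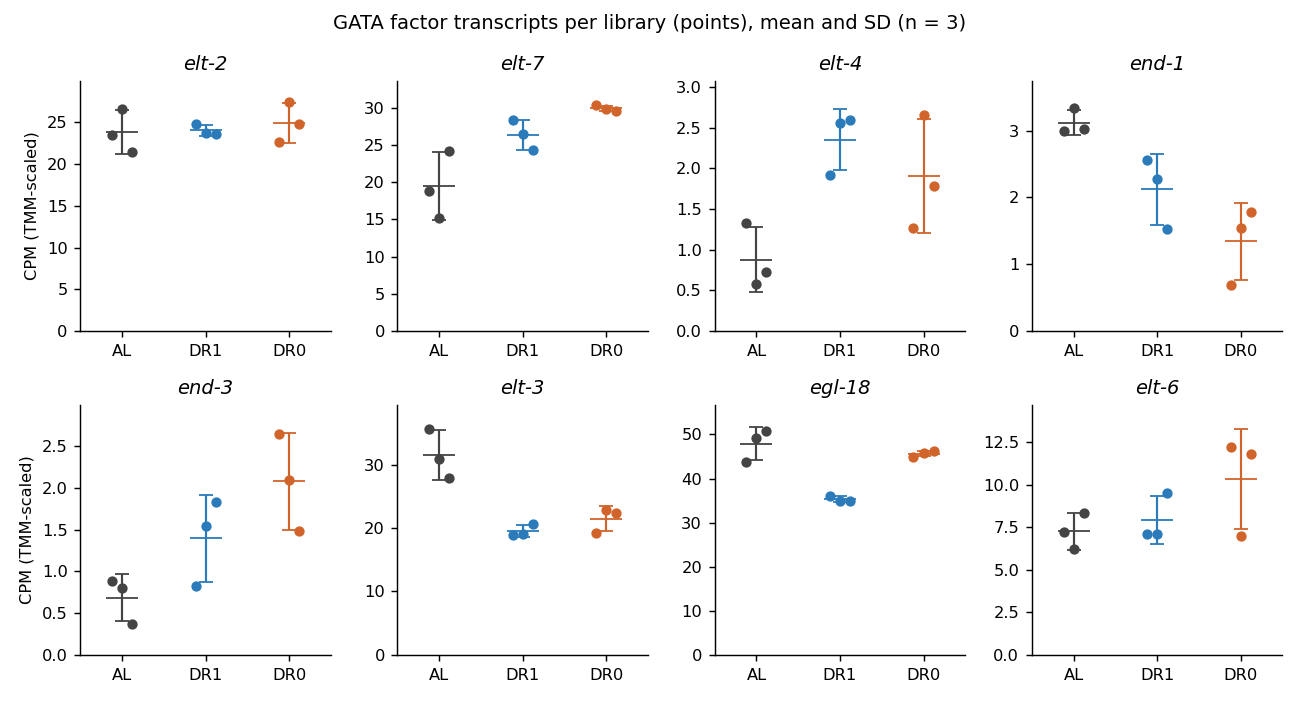
CPM of each GATA factor gene in the 9 libraries (points), with the mean and SD of each condition (n = 3). *elt-2* overlaps in all conditions between 21.4 and 27.4 CPM, *elt-3* is lower in all DR1 and DR0 libraries than in AL, and *egl-18* is lowest in DR1.

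Within a library, the ratio of *elt-7* to *elt-2* counts per kb does not depend on the scaling between libraries. The AL libraries gave 1.49, 1.05 and 2.10, those of DR1 2.11, 2.07 and 1.91 and those of DR0 2.49, 2.02 and 2.21. The ratio was thus above 1 in every library, but close to 1 in AL replicate 2, which held 132 counts of *elt-7* and 232 of *elt-2*. AL replicate 3 lay among the restricted libraries. The difference from AL on the log2 scale was 0.44 in DR1 and 0.58 in DR0 (two-sided exact permutation p = 0.3 and 0.2, both 0.36 after adjustment over the 6 ratio comparisons). With 3 libraries per condition such a test cannot go below 0.1.

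The embryonic factors *end-1* and *end-3* had opposite directions. The AL libraries held 27, 29 and 33 counts of *end-1*, those of DR1 28, 25 and 20 and those of DR0 6, 14 and 18. For *end-3* the AL libraries held 8, 7 and 4 counts, those of DR1 9, 17 and 24 and those of DR0 23, 19 and 15. In each AL library *end-1* had more counts than *end-3*, and in 2 of 3 DR0 libraries it had fewer. For *end-1*, the AL libraries (3.00, 3.33 and 3.02 CPM) lay above those of DR1 (2.56, 2.28 and 1.52) and DR0 (0.692, 1.55 and 1.79). Under DR0 the log2 level fell by 1.19 (s.e. 0.38, adjusted p = 0.0101), a call lost without DR0 replicate 1 (−0.90, adjusted p = 0.0545), whereas its value in DR1 was −0.56 (95% interval −1.29 to 0.17, adjusted p = 0.172). *end-3* rose by 1.61 in DR0 (s.e. 0.49, adjusted p = 0.00731), from 0.686 ± 0.281 to 2.08 ± 0.582 CPM with no overlap. In DR1 its log2 fold change was 1.06 and did not pass the test (95% interval 0.023 to 2.10, adjusted p = 0.0720), but it did without DR1 replicate 1 (1.32, adjusted p = 0.0389), with total-count scaling (1.40, adjusted p = 0.0170) and with upper-quartile scaling (1.26, adjusted p = 0.0328). Neither gene was called between DR0 and DR1, where the values were −0.63 (95% interval −1.44 to 0.18) and 0.55 (−0.34 to 1.43).

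The whole worms hold embryos, and *end-1* and *end-3* have close neighbours. The summed level of 10 genes of early embryos was 20.6 to 23.9 CPM (AL), 16.3 to 18.8 (DR1) and 15.7 to 24.8 (DR0), where it spanned the AL range. In each condition the largest part of that sum was *ceh-51*, at 11.03 ± 2.78 CPM (AL), 7.97 ± 0.695 (DR1) and 11.34 ± 3.75 (DR0). The sum is thus weighted to *ceh-51* and does not by itself show a steady embryo content. Of the 5 of these 10 genes that could be tested, 1 was lower in DR1 and 2 in DR0 and none was higher, beside 31.6% and 31% of all genes lower. They were *pes-10* (log2 fold changes of −1.88 and −2.06) and, in DR0, *sdz-38* (−1.83). *tbx-37* had 0.44 and 0.70 (adjusted p = 0.248 and 0.0654) and was called higher in DR0 with upper-quartile scaling (adjusted p = 0.0189). With total-count scaling, *tbx-37* and *tbx-38* were called higher in DR1 (0.79 and 0.89, adjusted p = 0.0363 and 0.0404). *ceh-51* was called lower in DR1 without AL replicate 3 (−0.62, adjusted p = 0.0241). The *end* activators *med-1* and *med-2* had at most 8 counts in a library and were not tested. The 10 oocyte and germline markers summed to 2568 to 2613 CPM (AL), 850.3 to 907 (DR1) and 1627 to 1672 (DR0). The gene *ric-7*, 89 bp from *end-1*, had 56.1, 49.7 and 56.3 CPM under AL feeding and fell to 30.4 ± 5.09 (DR1) and 31.3 ± 0.469 (DR0). On either side of *end-3*, *aip-1* at 1050 bp rose from 71.2 ± 3.83 CPM to 85.1 ± 4.56 and 93.3 ± 2.81, and *mtl-2* at 2289 bp fell by 1.54 and 1.14 on the log2 scale. The part of embryo content and of neighbouring reads in the *end-1* and *end-3* counts was not tested.

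*elt-3*, the hypodermal factor, was lower in both restricted conditions. It held 35.7, 30.9 and 27.9 CPM in AL, 18.9, 19.05 and 20.6 CPM in DR1 and 19.3, 22.9 and 22.3 CPM in DR0. All restricted libraries were below all AL libraries. It fell by 0.69 in DR1 (s.e. 0.11, adjusted p = 1.06e-05) and by 0.55 in DR0 (s.e. 0.11, adjusted p = 0.000208) on the log2 scale, which are 1.61-fold and 1.46-fold. The study's fold threshold removes both calls, and every other alternative run kept them, with log2 fold changes between −0.77 and −0.34 in DR1 and between −0.63 and −0.34 in DR0. DR0 and DR1 did not differ at the threshold (0.14, 95% interval −0.099 to 0.38).

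*egl-18*, the seam cell factor, fell in DR1 and stood near its AL level in DR0. The libraries held 43.7, 49.2 and 50.9 CPM in AL, 36.1, 34.997 and 34.8 CPM in DR1 and 45.0, 45.8 and 46.1 CPM in DR0. DR1 lay below the other conditions without overlap, and DR0 lay within the range of AL. The log2 fold change was −0.44 in DR1 (s.e. 0.078, adjusted p = 3.26e-05), −0.072 in DR0 (95% interval −0.23 to 0.089, adjusted p = 0.436) and 0.37 from DR1 to DR0 (s.e. 0.078, adjusted p = 0.000493). Both calls were lost with total-count scaling, at −0.095 in DR1 (adjusted p = 0.286) and 0.078 from DR1 to DR0 (adjusted p = 0.440), while they held without each library in turn. The summed oocyte and germline markers given above and the sum of 3 muscle markers (558 to 563 CPM in AL, 360.4 to 412 under DR1, 837 to 864 under DR0) were also lowest in DR1. So was the sum of 8 epidermis and seam markers (1035 to 1087 CPM in AL, 62.3 to 69.7 under DR1, 70.9 to 76.1 under DR0). The intestinal and neuronal sums had their lowest library in DR1 too, with ranges that overlapped another condition. Of the muscle markers 1, *myo-3*, was instead higher in DR1 than in AL (18.7 and 12.7 CPM, log2 fold change 0.56, adjusted p = 0.000164). The part of these markers in the *egl-18* level was not tested.

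*elt-6*, which follows *egl-18* on the chromosome and acts with it in seam cells, was not called lower in DR1. It stood at 7.22, 6.20 and 8.33 CPM in AL, at 7.12, 7.11 and 9.53 CPM in DR1 and at 12.2, 6.96 and 11.8 CPM in DR0. DR0 replicate 2 lay among the AL libraries and the other 2 DR0 libraries above all others. The log2 fold change was 0.13 in DR1 (95% interval −0.31 to 0.56, adjusted p = 0.619) and 0.50 in DR0 (s.e. 0.21, adjusted p = 0.0411). Any of AL replicates 1 and 2 and DR0 replicates 1 and 3 carried this call, which was absent when that library was left out (adjusted p 0.0872 to 0.185), and also with DESeq2 (adjusted p = 0.0542) and limma-voom (adjusted p = 0.0763). From DR1 to DR0 it was 0.38 (95% interval −0.040 to 0.80, adjusted p = 0.150) and passed the test without DR0 replicate 2 (0.59, adjusted p = 0.0194). For *egl-18* over *elt-6*, the ratio of counts per kb came to 5.04, 6.60 and 5.09 (AL), 4.23, 4.10 and 3.05 (DR1) and 3.07, 5.48 and 3.26 (DR0). It was lower in every DR1 library than in AL, by 0.56 on the log2 scale (two-sided exact permutation p = 0.1, the smallest that 3 against 3 libraries allow, 0.36 adjusted), and DR0 overlapped AL with a difference of −0.54 (exact permutation p = 0.3). The genes on either side, *egl-4* before *egl-18* and *denn-4* after *elt-6*, had log2 fold changes of −0.65 and −0.49 in DR1 and −0.43 and −0.58 in DR0, and *denn-4* was at −0.14 in DR1 with total-count scaling (adjusted p = 0.214).

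**Figure D4:**
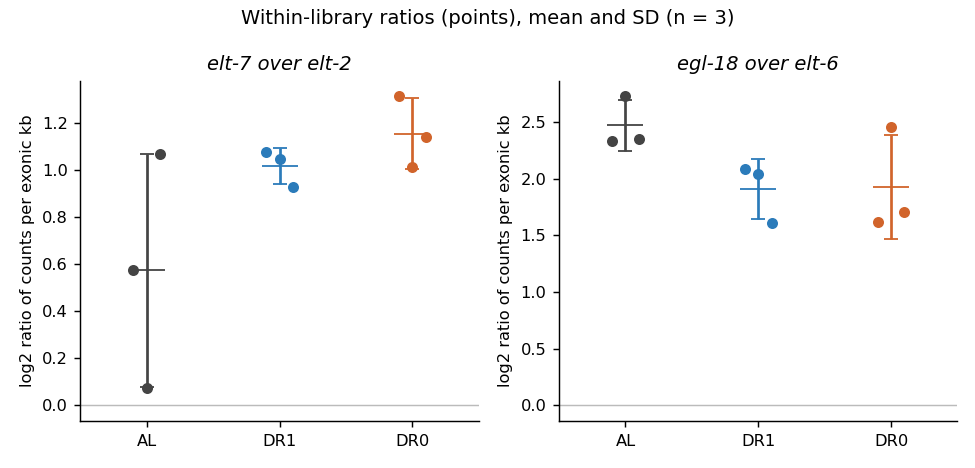
Log2 ratio of counts per exonic kb within each library (points) for *elt-7* over *elt-2* and *egl-18* over *elt-6*, with the mean and SD of each condition (n = 3). The *egl-18* over *elt-6* ratio is lower in the 3 DR1 libraries (mean 1.91) than in AL (mean 2.47), and the *elt-7* over *elt-2* ratio is most spread in AL.

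Of the other GATA factors of the worm, *elt-1*, which specifies the epidermis in the embryo, had a mean of 42.7 ± 2.29 CPM (AL), 47.4 ± 3.69 (DR1) and 45.4 ± 1.49 (DR0) and was not called in any comparison (adjusted p from 0.1001 to 0.561). Like *elt-2*, *elt-1* was called with other scalings, at 0.50 in DR1 with total counts (adjusted p = 6.52e-06) and at 0.29 in DR0 with the upper quartile (adjusted p = 0.00277). The GATA-type zinc finger genes *egl-27* and *lin-40*, which code for chromatin proteins of the MTA family, had opposite directions in DR1. *egl-27* rose by 0.23 and *lin-40* fell by 0.31 on the log2 scale (adjusted p = 0.00211 and 2.53e-06), although *lin-40* was at 0.035 with total-count scaling. Neither was called in DR0, but *egl-27* was without AL replicate 3 (−0.17, adjusted p = 0.0307) or DR0 replicate 1 (−0.17, adjusted p = 0.0340), and *lin-40* with upper-quartile scaling (0.14, adjusted p = 0.00849). *med-1* and *med-2*, which act before *end-1* and *end-3*, were too low to test.

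The level of *elt-2* can be set beside genes of the intestine that GATA sites or ELT-2 are known to drive or that mark the tissue. All 15 such genes were called in both comparisons with AL, 6 higher and 9 lower in each, with medians of −0.55 for DR1 and −0.71 for DR0, beside 28.5% of all genes higher and 31.6% lower in DR1 and 29.6% and 31% in DR0. The 6 were not the same genes, since *itr-1* was higher in DR1 (0.23) and lower in DR0 (−0.61), and *asp-1* lower in DR1 (−0.55) and higher in DR0 (0.088). The call of *itr-1* in DR1 was lost without AL replicate 1 or 2 or DR1 replicate 3, and that of *asp-1* in DR0 without any of the replicates 2 and 3 of AL and DR0. *elo-6*, at −0.19 in DR1, was at 0.16 with total-count scaling. The largest rises were *mtl-1*, a metallothionein (log2 fold changes of 4.15 and 4.49), and *ftn-1*, a ferritin (4.03 and 3.97). The largest falls were *pho-1*, an intestinal acid phosphatase (−2.12 and −2.17), and *act-5*, the actin of the microvilli (−2.17 and −1.61). The carboxylesterase *ges-1*, a classical target of ELT-2, rose by 1.00 and 0.73. The summed level of 6 intestinal markers, of which 5 fell and *ges-1* rose, was 1701 to 1721 CPM (AL), 667 to 715 (DR1) and 704 to 735 (DR0), and each of the 6 was detected in every library. In AL the largest part of that sum was *act-5*, at 922 ± 10.4 CPM, which stood at 205 ± 11.3 in DR1 and 303 ± 15.5 in DR0. The part of these markers in the level of *elt-2* was not tested.

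Of 6 genes, LySR proteases and regulators that the study tested beside ELT-2, the cathepsin B-like *cpr-5* and *cpr-8* and the transcription factor *pqm-1* passed both thresholds upward in DR1 and DR0. Of all genes tested, 19.2% in DR1 and 19.5% in DR0 passed both thresholds in either direction. For *cpr-8* in DR0, with 62 counts against 31 in AL, leaving out any of AL replicates 1 and 2 and DR0 replicates 1 and 2 removed the call (adjusted p 0.0523 to 0.107), as did limma-voom (adjusted p = 0.0576). The log2 fold changes were 2.26 and 3.06 for *cpr-5*, 1.57 and 1.05 for *cpr-8* and 1.13 and 1.54 for *pqm-1*. *hlh-30*, the TFEB orthologue, rose by 0.65 and 0.92. The acetyltransferase gene *cbp-1* rose by 0.33 in DR1 and fell by 0.17 in DR0, where it was at 0.040 with upper-quartile scaling and not called without DR0 replicate 1 (−0.11, adjusted p = 0.117). The foregut factor *pha-4*, at 0.19 and 0.11, was not called (adjusted p = 0.0813 and 0.353), but in DR1 it was without DR1 replicate 2 (0.24, adjusted p = 0.0493) and with total-count scaling (0.54, adjusted p = 2.53e-05). In the libraries where *elt-2* overlapped between conditions, *cpr-5* ranged over 7.11 to 9.70 CPM (AL), 39.1 to 42.8 CPM (DR1) and 68.1 to 76.2 CPM (DR0). By qRT-PCR the paper found that other LySR protease genes, *ctsa-1* and *asp-10*, decreased under restriction. Few of the genes it found raised by restriction were among its LySR genes. In the paper, knockdown of *pqm-1* or *hlh-30* left the *cpr-5* reporter response to *vha-6* knockdown unchanged, while knockdown of *elt-2* or *cbp-1* largely blocked it. Under *vha-6* knockdown the paper found ELT-2 protein largely unchanged but more ELT-2 bound at the promoters of LySR proteases. In its worms kept without bacteria, *elt-2* knockdown blocked the LySR induction and the longer lifespan.

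Among 7 regulators of endoderm specification, the 5 that could be tested had medians of −0.063 in DR1 and −0.075 in DR0. *skn-1* fell by 0.42 and 0.41 and *pal-1* by 0.82 and 0.84 on the log2 scale, though with total-count scaling *skn-1* was at −0.071 in DR1 (adjusted p = 0.288). *wrm-1* rose by 0.59 in DR1 and was at 0.14 in DR0 (adjusted p = 0.0882). *pop-1* and *lit-1* were not called in either, and both were called higher in DR1 with total-count scaling (0.28 and 0.47). Without DR0 replicate 1, *wrm-1* and *lit-1* were called in DR0 (adjusted p = 0.0456 and 0.0158).

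For the epidermis, 11 transcription factors were tested, of which 3 were higher and 4 lower in DR1 and as many in DR0, with medians of 0.060 and 0.086. These counts are near the shares of all genes, 28.5% higher and 31.6% lower in DR1 and 29.6% and 31% in DR0. The largest falls were *nhr-23* (−1.50 and −1.03) and the Grainyhead gene *grh-1* (−1.04 and −0.87), and the largest rises *bro-1* (0.82 and 1.13) and the seam cell factor *ceh-16* (0.54 and 0.40). *bro-1* had under 35 counts in every library, and its DR1 call was lost without any 1 of 8 libraries, all but DR1 replicate 3 (adjusted p up to 0.161). The *ceh-16* call in DR0 was lost without AL replicate 2 (adjusted p = 0.0791) or DR0 replicate 1 (adjusted p = 0.0689). The *grh-1* call was lost in DR1 without AL replicate 1 or DR1 replicate 3 (adjusted p = 0.0537 and 0.0625), and in DR0 without any of AL replicates 1 and 3 and DR0 replicates 1 and 2 (adjusted p 0.0702 to 0.169). Of 6 stress genes listed for the epidermis and tested, 5 were lower in DR1 and 4 in DR0, led by *gpdh-1*, which makes glycerol under osmotic stress (−2.64 and −0.94), and *hmit-1.1* (−1.22 and −1.26). Libraries of whole worms do not show in which tissue these genes fell. The *cnc-2* call in DR1 (adjusted p = 0.0314) was lost with total-count and upper-quartile scaling (adjusted p = 0.217 and 0.106). It was also lost without AL replicate 2 or 3 or DR1 replicate 1 or 3. The antimicrobial peptide gene *nlp-31* rose 1.57-fold in DR1, where its libraries overlapped AL, and 2.14-fold in DR0. Its relative *nlp-29* fell by 1.28 and 1.14 on the log2 scale. The 8 markers of epidermis and seam summed to 1035 to 1087 CPM (AL), 62.3 to 69.7 (DR1) and 70.9 to 76.1 (DR0). In AL most of that sum was the adult collagen *col-19*, which fell from 1040 ± 28.8 CPM to 33.4 ± 0.623 under DR1 and 37.7 ± 3.16 under DR0, while 2 of the 6 markers tested were higher and 2 lower in each condition. The cuticle collagen *rol-6* was at 0 counts in 4 libraries. Of other tissues, 3 neuronal markers summed to 351 to 369 CPM in AL, 348 to 357 under DR1 and 482 to 500.2 under DR0. The part of these changes in the level of *elt-3* and *egl-18* was not tested.

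**Figure D5:**
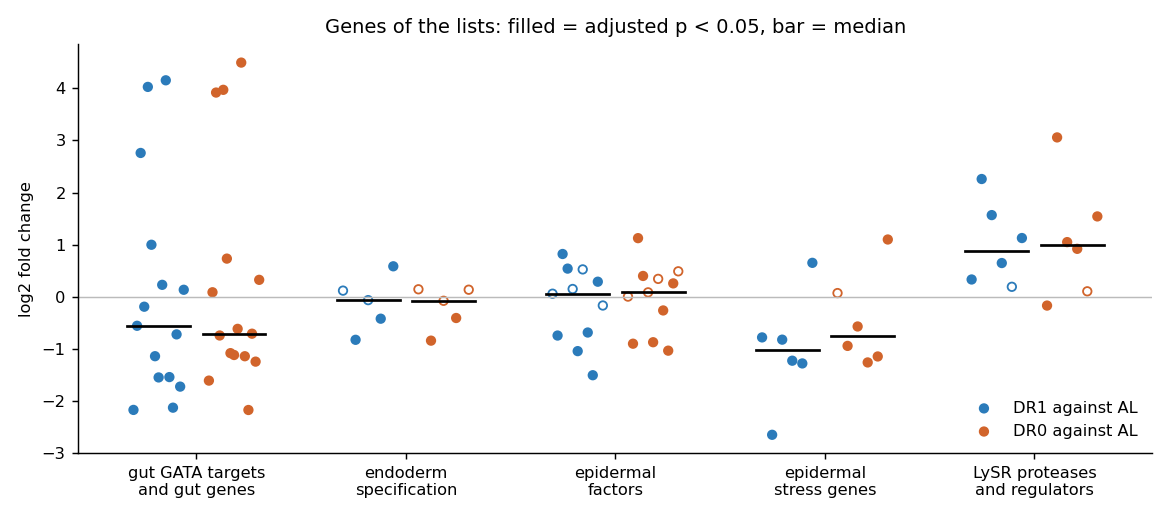
Log2 fold change against AL of the tested genes of 5 lists, with DR1 and DR0 side by side (points, filled at an adjusted p under 0.05, bars at the median). The 15 gut genes spread from −2.17 to 4.49, with medians of −0.55 and −0.71.

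By the likeness of their log2 CPM over the 9 libraries, each called member was set beside the 3 genes with the highest Pearson correlation among those with a mean of at least 10 CPM. These correlations share the libraries and their 3 conditions and are a description. The pattern of *elt-3* was nearest to C06H2.7 (r = 0.982), C18H9.3 and B0238.9, and that of *egl-18* to *cyc-1* (r = 0.981), a subunit of respiratory complex III, and to *ivd-1* and *ekl-7*. The mean CPM of *cyc-1* was 324 with AL feeding, 228 under DR1 and 311 under DR0. Nearest to *elt-7* were W10G11.19 (r = 0.971), *fbxb-16* and C36A4.11, and to *elt-4* *sek-3* (r = 0.977), K04C1.3 and C40H1.7. For *elt-6* they were K02D10.1 (r = 0.877), C49C3.8 and *dhs-6*. *end-1* was nearest to Y116A8C.9 (r = 0.955), T11G6.5 and W04A4.5, and *end-3* to the nuclear hormone receptor gene *nhr-8* (r = 0.949), D1053.4 and *nhl-3*.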

How the data were processed

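Unnormalised gene counts of 9 libraries were deposited by the authors. Per the paper's methods they were made by filtering reads at a Phred score of 20, mapping them to WBcel235 (Ensembl release 89) with STAR and counting exonic reads without strand with htseq-count. The submitters' processing notes name STAR 2.73a and edgeR 3.24.3, a different STAR version than the methods. No library was left out.

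Counts were analysed with edgeR 4.0.16 in R 4.3.3, on 14332 of 46926 genes kept by filterByExpr. Libraries were scaled by TMM, 1 mean per condition was fitted to all 9 libraries with glmQLFit and tested with glmQLFTest, and p values were adjusted by Benjamini–Hochberg over the genes tested. The s.e. is the log2 fold change divided by the root of the F statistic, and 95% intervals use it with the degrees of freedom of the test. Counting error in CPM is the Poisson SD. Positions and exonic lengths are from Ensembl release 115 on WBcel235. Ratios were compared by exact permutation tests (scipy 1.17.1). Alternatives were DESeq2 1.42.0, limma-voom (limma 3.58.1), RLE, total-count and upper-quartile scaling, no filter, a mean of at least 1 CPM, only the compared conditions, the replicate block, the study's fold threshold, a pseudocount of 1 in the ratios and leaving out each library. The test was tested on simulated data in which a small share of genes changed, up or down at random, in DR1 only. All genes changed there had higher mean levels than *elt-4*, *end-1* and *end-3*, so the simulated data do not cover these members. Such data cannot speak to the choice of scaling.

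The members, lists and tests were chosen with earlier results of these data known. All members are named. From each list, up to 2 rises and 2 falls are named by the mean log2 fold change of both comparisons with AL, and in the list of other GATA factors and of LySR proteases and regulators all are. *ges-1*, *itr-1*, *asp-1*, *elo-6*, *pop-1*, *lit-1*, *nlp-29*, *cnc-2*, *pes-10*, *sdz-38*, *tbx-37*, *tbx-38*, *ceh-51*, *myo-3*, *col-19*, *rol-6* and the neighbours of members on the chromosome fall outside it, being picked with their values in view.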

Additional observations from a re-analysis of the deposited data

How the results depend on the processing

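The replicate numbers did not pair the libraries, since deviations from the condition means correlated at −0.018 to 0.063 for the same number and 3 of 9 libraries correlated best with their own. With the replicate block, 4, 5 and 1 members were called in DR1, in DR0 and between DR0 and DR1, where the fit without it called 4, 6 and 1. With the fold threshold these counts were 1, 3 and 0. With total-count scaling 0 members were called between DR0 and DR1, and *elt-2* (−0.24), *elt-3* (−0.15) and *elt-7* (−0.11) changed sign there on the log2 scale. With upper-quartile scaling *egl-18* was at 0.14 in DR0. Leaving out 1 library at a time gave 3 to 5, 4 to 6 and 1 to 2 members called. The log2 fold change of *elt-2* was then −0.060 to 0.095 in DR1, −0.0063 to 0.15 in DR0 and −0.016 to 0.12 between DR0 and DR1, that of *elt-6* in DR1 −0.034 to 0.24, and the difference in log2 *egl-18* over *elt-6* between DR0 and DR1 −0.25 to 0.17. The cause of these changes was not tested. Over the alternatives for single members other than the fold threshold, 397 values kept direction and call, 17 lost the call, 6 gained it and 11 changed sign. In a fit of AL and DR1 alone *end-3* was removed by the filter and has no value. Total-count scaling turned 4078 genes higher and 4530 lower in DR1 into 7053 and 2495, and 3035 and 2557 between DR0 and DR1 into 1293 and 5609, and upper-quartile scaling turned 4237 and 4446 in DR0 into 5846 and 3009. In DR1, upper-quartile scaling gave 5703 and 3251. *elt-4*, *end-1* and *end-3* had under 35 counts in every library, which sets the width of their intervals.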
